A study of Mus musculus with 15 samples.

Results

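Tuft cells are rare chemosensory cells of the digestive epithelium, and the genes described here are 8 genes by which they are commonly recognised. They were chosen by symbol, as Dclk1, Pou2f3, Trpm5, Gfi1b, Il25, Gnat3, Avil and Plcg2, from the 44788 gene symbols of the deposited tables. All 8 symbols were found, each with 1 entry. A maximal FPKM of at least 1 was reached by 6 of them, as by 16902 symbols in all, while Gfi1b and Il25 stayed below 1 at every timepoint. FPKM is a length-corrected level, the fragments sequenced per kilobase of transcript, scaled to a fixed number of mapped fragments.

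A tuft cell carries a tuft of stiff microvilli on its apical side and senses the content of the lumen with a signalling chain that it shares with taste cells. Receptors on the tuft activate a G protein, a phospholipase C releases calcium from internal stores, and the calcium opens a cation channel. The cell answers with lipid mediators, acetylcholine and, in the intestine, an interleukin that alerts type 2 immune cells.

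The transcriptomes came from whole stomachs of C57BL/6 mice with no further treatment, at 15 timepoints from E12.5 over E18.5 (days of gestation) and postnatal days 1, 3 and 5 (D1, D3, D5) to postnatal weeks 1, 2, 3, 6 and 8 (W1 to W8), with 1 transcriptome per timepoint. Following the RNA phases of the study, 6 timepoints from E12.5 to E17.5 form Ph1, 6 from E18.5 to W2 form Ph2 and 3 from W3 to W8 form Ph3. The phases themselves come from these transcriptomes, which favours small p-values. A phase mixes different ages, so a p-value here sets the difference between phases against the spread among their timepoints. It does not measure the spread among animals of 1 age. The study took the stomachs of weaned mice from males only and the younger ones without regard to sex. It also describes replicates that combine stomachs of several embryos at the younger fetal ages. Ph3 is thus all male while Ph1 and Ph2 are of unrecorded sex, and the part of sex in the differences to Ph3 was not tested. The part of pooling was not tested either. The labels name stomach as the tissue, while the methods name liver for the RNA, and the 13 glandular stomach markers checked were all above 0 at every timepoint and summed to 222700 to 321000 FPKM in Ph3.

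The read depth is not given in the tables. Relative to E12.5, it ranged from 0.702 at E16.5 to 1.17 at W6, as read from entries whose bounds equal those of a single fragment. The 10 most abundant genes held between 11.2% and 53.2% of all FPKM, so a gene of constant amount can have a lower FPKM in the oldest stomachs. The median log2 difference of all tested genes was -0.22 from Ph1 to Ph2 and -0.43 from Ph2 to Ph3, and median-ratio scaling of the libraries brought these to 0 and -0.02. The libraries at W8, D1 and W3 stood apart. At W8 the 13 squamous forestomach markers summed to 29.1 FPKM against 2357 at W6, and at D1 albumin (Alb) stood at 460.5 FPKM against 25.8 at the next timepoint. At W3 Alb stood at 65.4 FPKM, against 1.81 at W2 and 0.869 at W6.

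Gnat3, Avil and Trpm5 stand for the different time courses described below, and 1810046K07Rik is a coactivator gene of Pou2f3. The start regions of these 4 genes are printed. Each runs from 250 bases before to 50 bases after a RefSeq gene start in GRCm38.p6 and is written 5′ to 3′ on the strand of the gene. Of the 8 genes, 6 have an entry in this promoter table, and Pou2f3 and Il25 have none. Capitals mark matches, on either strand, to the octamer ATGCAAAT, the sequence that POU factors of the family of Pou2f3 bind, or to its first 7 letters, ATGCAAA.
Gnat3, chr5:17962320-17962619, plus strand: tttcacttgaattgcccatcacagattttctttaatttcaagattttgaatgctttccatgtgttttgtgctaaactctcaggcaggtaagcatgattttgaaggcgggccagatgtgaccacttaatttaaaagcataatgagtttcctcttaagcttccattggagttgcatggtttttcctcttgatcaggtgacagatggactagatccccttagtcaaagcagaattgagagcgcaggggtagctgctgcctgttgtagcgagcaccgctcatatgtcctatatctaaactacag
Avil, chr10:127000459-127000758, plus strand: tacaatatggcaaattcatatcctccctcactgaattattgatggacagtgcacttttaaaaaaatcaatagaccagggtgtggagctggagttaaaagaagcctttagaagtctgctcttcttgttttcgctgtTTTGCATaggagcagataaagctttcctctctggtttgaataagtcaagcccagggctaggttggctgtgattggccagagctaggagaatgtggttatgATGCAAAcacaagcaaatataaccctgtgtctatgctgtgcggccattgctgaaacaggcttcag
Trpm5, chr7:143094593-143094892, minus strand: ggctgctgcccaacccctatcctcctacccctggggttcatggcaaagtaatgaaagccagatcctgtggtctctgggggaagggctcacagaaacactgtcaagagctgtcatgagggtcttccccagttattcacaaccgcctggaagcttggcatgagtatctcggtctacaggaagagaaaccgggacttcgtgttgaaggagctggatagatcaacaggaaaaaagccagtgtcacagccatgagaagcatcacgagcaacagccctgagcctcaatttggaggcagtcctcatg
1810046K07Rik, chr9:51328869-51329168, minus strand: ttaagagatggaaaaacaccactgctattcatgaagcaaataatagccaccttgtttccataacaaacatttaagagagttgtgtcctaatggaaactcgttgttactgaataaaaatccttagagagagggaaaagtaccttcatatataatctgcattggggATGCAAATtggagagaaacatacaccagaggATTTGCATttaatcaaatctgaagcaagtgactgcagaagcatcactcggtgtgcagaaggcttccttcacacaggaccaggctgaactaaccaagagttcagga

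The whole octamer was in none of the 6 members' promoters and in 570 of 32851 promoters (1.74%). The Avil promoter held the first 7 letters at 2 places, beginning 15 and 115 bases before the start on opposite strands, and 4.63% of all promoters hold this shorter sequence. No match was found in the Gnat3 and Trpm5 windows, which says only that these letters are not there. 1810046K07Rik is no member. It encodes a coactivator of Pou2f3 and has 2 promoter entries. An entry with the octamer was preferred for printing, and the one shown holds the octamer at 2 places, 86 and 55 bases before the start. Counted by symbol, 6 of 43 other tuft cell genes with a promoter entry (14.0%) and 532 of 27025 symbols in all (1.97%) hold the octamer. Those 6 are 1810046K07Rik, Hpgds, Itpr3, Kctd12, Ly6g6d and Sucnr1.

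**Figure D1:**
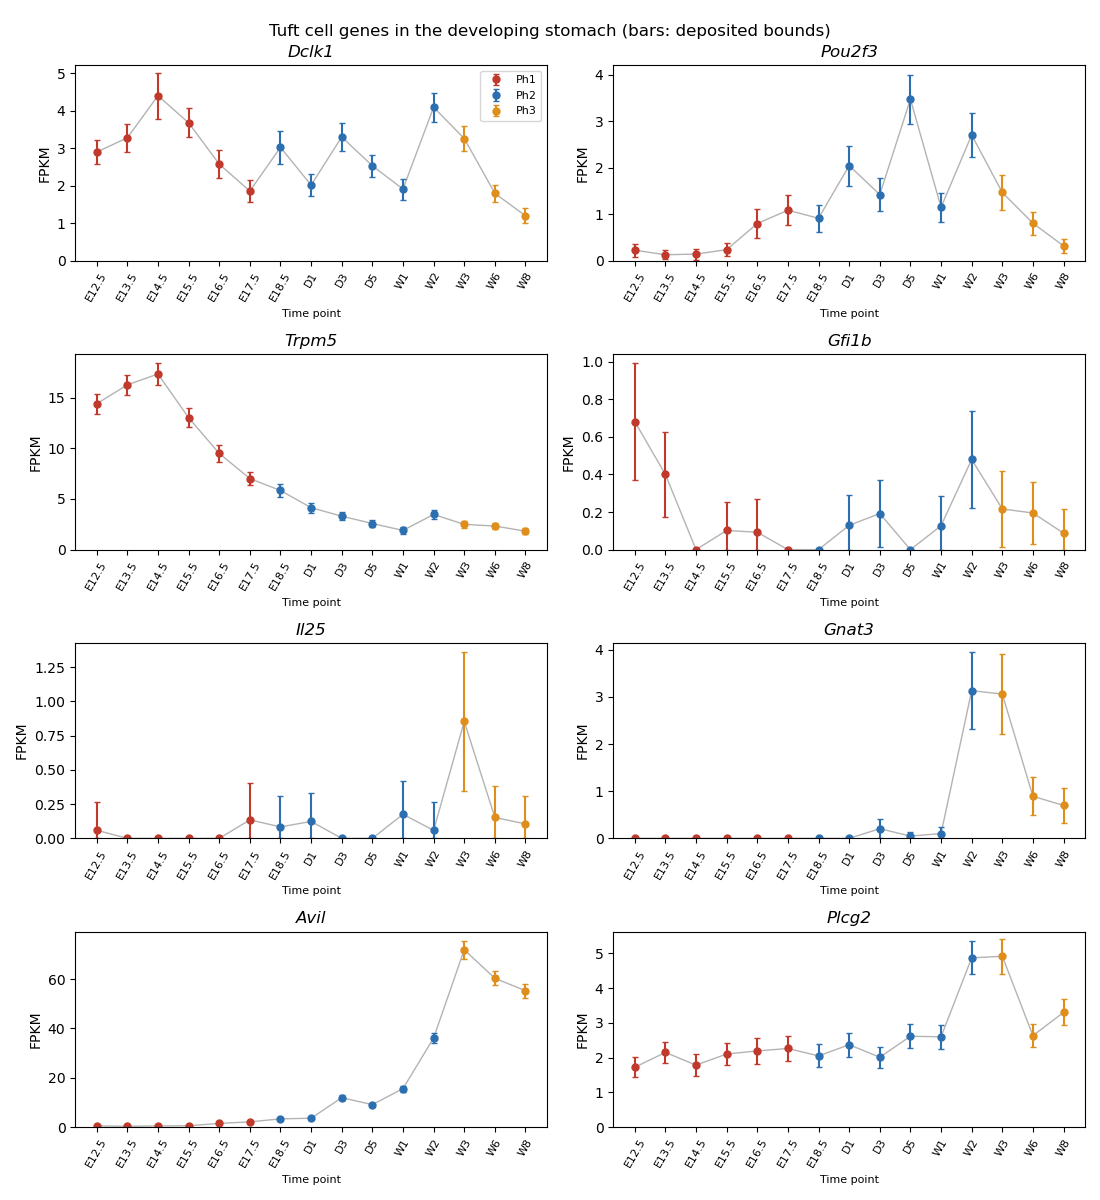
FPKM of each of the 8 genes (vertical axes from 0, own scale per panel) at the 15 timepoints, coloured by phase, with the deposited confidence bounds as bars. Trpm5 is highest from E12.5 to E15.5, Avil climbs to 71.9 at W3, and Gnat3 and Plcg2 both have their highest values at W2 and W3.

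The 8 genes did not share a time course. Between Ph1 and Ph2, Pou2f3 and Avil rose and Trpm5 fell. Between Ph2 and Ph3, Avil rose again. Across the whole span from Ph1 to Ph3, Avil was higher and Trpm5 was lower, and Gnat3 was higher by a call that was lost in 12 of 15 fits leaving out 1 timepoint, with no FPKM minimum and with the protein phases of the study, which place E17.5 in Ph2. Gnat3 did not pass an F test over the 3 phases (limma adjusted p = 0.02518). Dclk1 and Plcg2 passed the test in no comparison of the deposited FPKM. The test was limma on log2(FPKM + 1) over the 16902 genes, with Benjamini-Hochberg adjustment and a threshold of 0.01.

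These counts have to be read against all genes tested. From Ph1 to Ph2, 2 of 6 tested members were higher and 1 was lower, where 13.2% of all genes were higher and 35.1% lower. Between Ph2 and Ph3, 1 member was higher and 0 were lower, against 3.41% and 37.4% of all genes. From Ph1 to Ph3, 2 were higher and 1 was lower, against 11.7% and 55.2%. Gnat3, 1 of these 2, reached 1 FPKM only at W2 and W3, so the FPKM minimum favours its rise. An F test over the 3 phases called 3 of the 6 members, Pou2f3, Trpm5 and Avil, where it called 70.8% of all genes. The median log2 difference of the 6 members was 0.34, -0.01 and 0.48 in the 3 comparisons. After median-ratio scaling, members called higher numbered 2, 2 and 3, with Plcg2 added, and those called lower 1, 0 and 1, while all genes were called higher in 20.0%, 15.3% and 29.3% and lower in 18.7%, 10.2% and 27.3%. In whole organs, fewer cells of a type and less RNA per cell cannot be told apart.

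**Figure D2:**
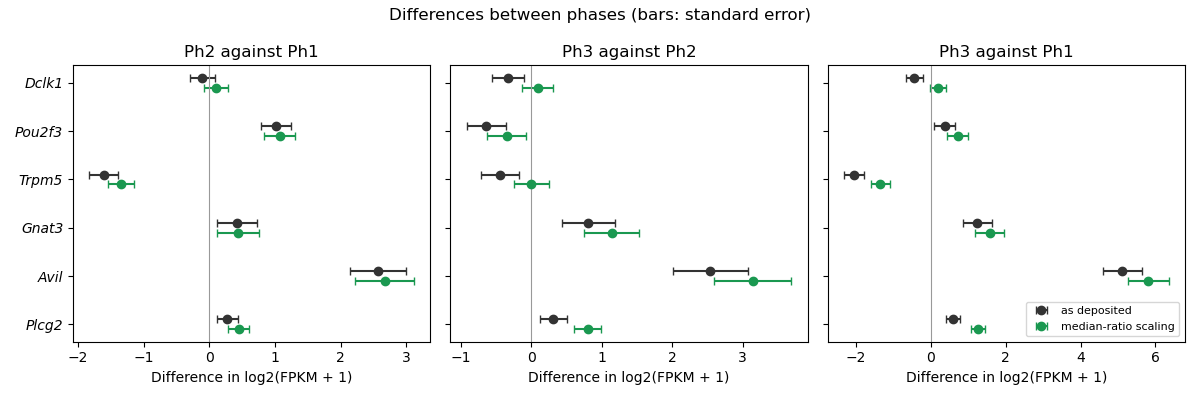
Difference in log2(FPKM + 1) between phases for the 6 tested genes (points) with standard errors (bars), for FPKM as deposited and after median-ratio scaling. Avil lies above 0 and Trpm5 at or below 0 in all 3 comparisons under both scalings, and Dclk1 changes side.

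Pou2f3 is the transcription factor without which tuft cells do not form, and it is also made in squamous epithelium. It lies at chr9:43123939-43205755 on the minus strand (GRCm38). In Ph1 its FPKM had a lowest value of 0.132 at E13.5, a median of 0.236 and a highest of 1.09 at E17.5. In Ph2 it ranged from 0.916 at E18.5 over a median of 1.74 to 3.48 at D5. In Ph3 it was 1.47 at W3, 0.811 at W6 and 0.322 at W8. Ph1 and Ph2 overlapped only at E17.5 and E18.5, where the bounds overlapped too.

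From Ph1 to Ph2 Pou2f3 rose by 1.01 ± 0.23 (SE) on the log2 scale (6 against 6 timepoints, limma adjusted p = 0.001825). The difference from Ph2 to Ph3 was -0.64 ± 0.28 with a limma adjusted p of 0.06448. Single steps were large and went both ways. The deposited bounds did not overlap between D3 and D5 (1.43 and 3.48 FPKM), between D5 and W1 (1.15) or between W1 and W2 (2.71).

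The forestomach of the mouse is lined by squamous epithelium, and its markers moved over the same timepoints. All 13 markers on the squamous list were above 0 in every library. Their sum ran from 87.1 to 15560 FPKM in Ph1, from 4074 to 21180 in Ph2 and from 29.1 to 5011 in Ph3. At W8, the keratins Krt14 and Krt5 were at 0.366 and 1.26 FPKM, against 40.8 and 27.3 at W6, and Pou2f3 had its lowest value after birth. The part of squamous cells in the Pou2f3 values was not tested. Without the D1 and W8 libraries the Ph2 to Ph1 difference was 0.99, with a limma adjusted p of 0.004121. The genes with the most similar course over the 15 timepoints were Egr3 (Pearson r of log2 values 0.973), Cyp27a1 (0.959) and P2ry14 (0.941), all of them highest at D5. This is a description across timepoints that share their libraries.

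**Figure D3:**
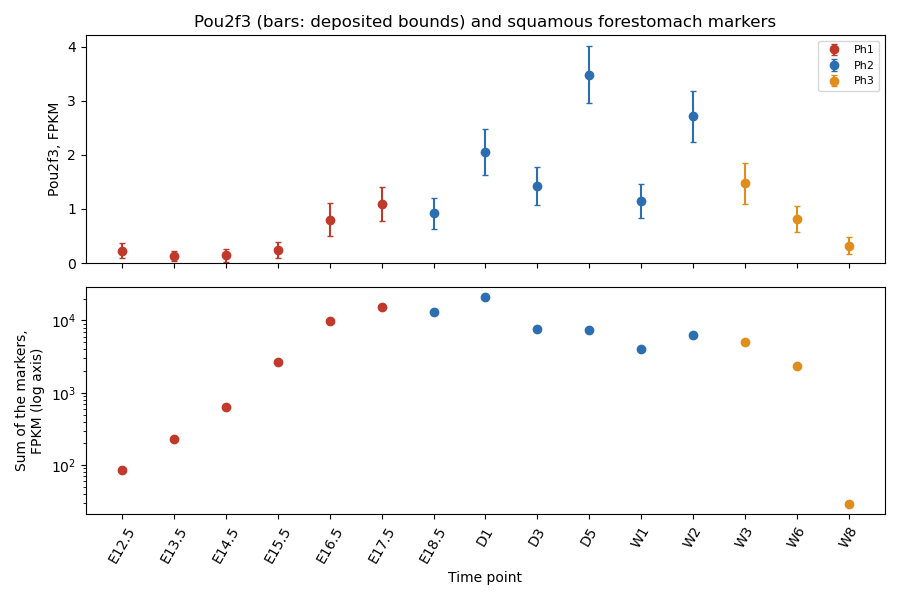
Pou2f3 FPKM with deposited bounds (upper panel, axis from 0) and the summed FPKM of 13 squamous forestomach markers (lower panel, log axis) at the 15 timepoints. Both are low at E12.5 to E14.5 and at W8, while the highest Pou2f3 value, 3.48 at D5, and the highest marker sum, 21180 at D1, fall on different timepoints.

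Of the paralogs, Pou2f1, a POU factor made in most cells, fell from Ph1 to Ph2 by 0.69 on the log2 scale (limma adjusted p = 0.0004562), and Pou2f2, known from B cells, stayed below 1 FPKM at every timepoint. The coactivator gene 1810046K07Rik was at 0.0989 FPKM at E12.5, 0.766 at W1, 2.06 at W2, 2.03 at W3 and 1.32 at W8, and rose from Ph1 to Ph3 by 0.91 ± 0.20 (SE, limma adjusted p = 0.0008457). It reached 1 FPKM only from W2 on, so the FPKM minimum favours this rise.

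Gfi1b, a transcriptional repressor of tuft cells that is better known from red cell and platelet precursors, was close to the detection limit. It lies at chr2:28609450-28621982 on the minus strand. It had 0.681 FPKM at E12.5 and 0.400 at E13.5, then at most 0.192 up to W1, 0.480 at W2, 0.217 at W3, 0.195 at W6 and 0.0876 at W8. It was listed at 0 at 4 timepoints. The bounds at E12.5, 0.371 to 0.991, overlapped those at W2, 0.224 to 0.736. With no minimum on FPKM, 28775 genes were tested and the Ph3 to Ph1 difference of Gfi1b was -0.03 ± 0.16 (limma adjusted p = 0.9345).

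The libraries with the highest Gfi1b, E12.5, W2 and E13.5 in this order, differed in their content of red cell genes, which were abundant at E12.5 and E13.5 and low at W2. The embryonic globin gene Hbb-y was at 3298 FPKM at E12.5 and at 1360 at E13.5. The erythroid list, with 13 of 14 symbols matched, summed to 21.3 to 3791 FPKM in Ph1, 4.97 to 24.4 in Ph2 and 3.31 to 4.88 in Ph3. The 10 megakaryocyte markers summed to 30.2 to 52.3, 39.9 to 89.9 and 11.3 to 42.0 FPKM in the 3 phases. At W2, the erythroid sum was 4.97 FPKM, Hbb-y was at 1.98 FPKM and the erythroid marker Rhag was listed at 0. The part of blood cells in the Gfi1b values was not tested.

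Gnat3 encodes gustducin, the G protein alpha subunit of taste cells that tuft cells also carry. It lies at chr5:17962570-18019668 on the plus strand, and the entry begins at the RefSeq start of the promoter shown. It was listed at 0 in all 6 libraries of Ph1 and at E18.5 and D1. It was at 0.205 FPKM at D3, 0.0485 at D5 and 0.102 at W1. At W2 it was at 3.13, at W3 at 3.06, at W6 at 0.893 and at W8 at 0.699. The bounds implied about 2 fragments at W1 and 58.9 at W2, and the 4 libraries from W2 on lay above all 11 earlier ones.

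The main step of Gnat3 thus lay inside Ph2, between its last timepoints. From Ph1 to Ph3 Gnat3 rose by 1.24 ± 0.38 (SE, limma adjusted p = 0.008638), close to the threshold. The size of this difference depends on the pseudocount, since Ph1 is at 0, and was 3.76 with a pseudocount of 0.1. Between Ph2 and Ph3 the difference was 0.81 ± 0.38 (limma adjusted p = 0.07932), and without W2 it was 1.14 with a limma adjusted p of 0.000605.

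The 3 genes with the course most like that of Gnat3 were Rgs13 (r = 0.991), Spib (0.987) and Alox5 (0.969), all 3 of them also on the list of other tuft cell genes. Rgs13, a regulator of G protein signalling, was at 0.137 FPKM at W1, 4.80 at W2, 4.26 at W3, 1.71 at W6 and 0.693 at W8. Spib, an Ets transcription factor also known from B cells and intestinal M cells, was at 0.209, 3.55, 2.82, 1.48 and 0.716 at these timepoints. Alox5, the 5-lipoxygenase of leukotriene synthesis, was at 0.761, 3.52, 4.59, 2.13 and 1.10. These 3 were picked for their likeness to Gnat3 over the same 15 libraries, so their values are a description.

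**Figure D4:**
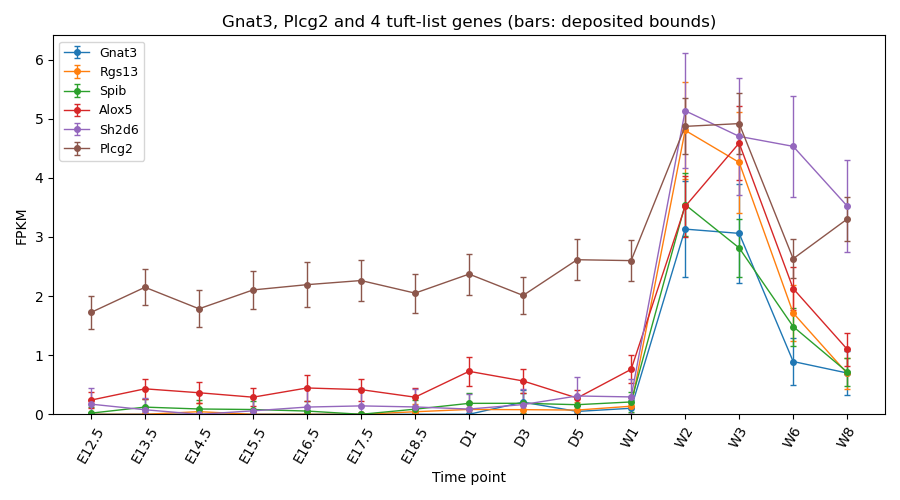
FPKM (axis from 0) of Gnat3, Plcg2 and the tuft list genes Rgs13, Spib, Alox5 and Sh2d6 at the 15 timepoints, with the deposited bounds as bars. All except Plcg2 stay below 1 up to W1 and lie between 3.13 and 5.14 at W2, and Plcg2 goes from 2.60 to 4.87 at the same step.

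Plcg2 encodes phospholipase C gamma 2, found in tuft cells and in B cells and myeloid cells. It lies at chr8:117498291-117635142 on the plus strand. In Ph1 its FPKM lay between 1.72 and 2.26 with a median of 2.13. In Ph2 it lay between 2.01 and 4.87 with a median of 2.49, and the next highest value was 2.61 at D5. In Ph3 it was 4.92 at W3, 2.63 at W6 and 3.30 at W8. All 3 values of Ph3 lay above all 6 of Ph1.

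The Ph3 to Ph1 difference of Plcg2 was 0.58 ± 0.19 (SE) with a limma adjusted p of 0.01289, just outside the threshold. After median-ratio scaling Plcg2 was higher in Ph3 than in Ph1 by 1.25 (limma adjusted p = 4.795e-05) and higher than in Ph2 by 0.80 (limma adjusted p = 0.004578). Its related gene Plcg1, the phospholipase of most other cells, had an opposite course. Plcg1 was at 34.8 FPKM at E12.5, 9.04 at W1 and 6.20 at W8, and fell from Ph1 to Ph3 by 2.22 (limma adjusted p = 5.184e-06), and by 1.44 after median-ratio scaling. The gene closest to Plcg2 in course was Gnat3 (r = 0.93), followed by Itgax (0.919), an integrin of dendritic cells and macrophages, and 2210409E12Rik (0.915).

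Immune cells can also express Plcg2, Spib and Rgs13, so their markers are given for the same step. From W1 to W2 the 11 leukocyte markers summed to 58.2 and 60.7 FPKM, the 9 B cell markers to 8.10 and 9.72 and the 11 matched myeloid markers to 240.7 and 226.4. Of the 9 B cell markers 1 was higher with bounds apart, Blnk, an adaptor of B cell signalling, which went from 2.58 to 4.08 FPKM. Cd79b went from 0.572 to 1.05 with overlapping bounds, Ms4a1 from 0.207 to 0.0261, and Pax5 was listed at 0 at both timepoints. The part of immune cells in the step was not tested. The mast cell list went from 41.4 to 33.5 FPKM. Single genes of these lists went both ways with bounds apart. Hdc of the mast cell list went from 1.54 to 9.14 FPKM and Lyz2 of the myeloid list from 21.8 to 32.3. Lower at W2 were Cpa3, Mcpt4 and Cma1 of the mast cell list and Csf1r and Fcer1g of the myeloid list. At W3, leukocyte markers were at 69.4, mast cell markers at 101.5 and myeloid markers at 305.1 FPKM, the highest sum of each list. The B cell markers were at 8.24 FPKM there, below their sum at W2.

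Trpm5, the calcium-activated cation channel at the end of the signalling chain, had the course least like the rest. Its entry lies at chr7:143071529-143094642 on the minus strand. It was at 14.4, 16.3, 17.3, 13.0, 9.49 and 7.01 FPKM from E12.5 to E17.5. In Ph2 it went from 5.84 at E18.5 to 1.90 at W1 and was 3.47 at W2. In Ph3 it was 2.49, 2.33 and 1.82. Every value of Ph1 lay above every later one, and the library at W2 was the only one from E15.5 on whose bounds lay above those of the timepoint before.

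Trpm5 fell from Ph1 to Ph2 by 1.61 on the log2 scale (SE 0.22, limma adjusted p = 8.777e-05), and by 1.35 after median-ratio scaling. Ph3 differed from Ph2 by -0.45 ± 0.27 (limma adjusted p = 0.1624) as deposited and 0 after scaling. Its r with Avil over the 15 timepoints was -0.90 and with Gnat3 -0.51. The genes most like it were Bex4 (0.980), Mapk1ip1l (0.978) and 2810004N23Rik (0.978), all 3 lowest at W8.

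Trpm5 has a close and more abundant neighbour. The entry of Tssc4, on the opposite strand, ends 436 bases before it, was at 18.1 to 44.7 FPKM and had an r of 0.76 with Trpm5. In the GENCODE M21 annotation Trpm5 extends to 143069153, across the end of Tssc4. The deposited entries of the 2 genes do not overlap. Whether the counting used the strand is not given in the sources used here, and the part of Tssc4 in the early Trpm5 values was not tested. The markers of enteric neurons also had their highest sums early, 210.8 to 393.2 FPKM in Ph1, 152.4 to 262.6 in Ph2 and 48.3 to 99.4 in Ph3 for 12 of 12 genes. Other tuft genes went both ways in Ph1. Gnat3 was listed at 0 there and Rgs13 and Spib were at most at 0.0446 and 0.122 FPKM, while Dclk1 (4.40), Hmx3 (5.43) and Kctd12 (33.4) had their highest values in Ph1, as Trpm5 did. Trpm4, the related channel, rose from Ph1 to Ph2 by 0.51 (limma adjusted p = 0.006357).

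Avil encodes advillin, an actin-bundling protein of the villin family found in the microvilli of tuft cells and in sensory neurons. It lies at chr10:127000065-127020994 on the plus strand, and the entry begins before the RefSeq start used for the promoter. Its FPKM in Ph1 was 0.359 to 2.13 with a median of 0.526. In Ph2 it was 3.35 at E18.5, 3.61 at D1, 11.9 at D3, 9.12 at D5, 15.6 at W1 and 36.1 at W2. In Ph3 it was 71.9, 60.3 and 55.3. The 3 phases did not overlap.

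Avil rose from Ph1 to Ph2 by 2.57 ± 0.43 (SE, limma adjusted p = 0.0002555) and from Ph2 to Ph3 by 2.54 ± 0.53 (limma adjusted p = 0.001283). It was the most abundant of the 8 genes from D3 on and the only one above 5 FPKM in Ph3. Its level at W8, 55.3 FPKM, stood beside 0.699 for Gnat3 and 0.322 for Pou2f3. The genes closest to it in course were Capn13 (r = 0.995), Me3 (0.991) and Capn9 (0.989), the last a calpain known from the stomach lining, and all 3 were highest at W6. The 13 glandular stomach markers summed to 902.3 to 4079 FPKM in Ph1, 7634 to 76410 in Ph2 and 222700 to 321000 in Ph3, and their part in the Avil values was not tested.

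Ctdsp2 ends 90 bases before the Avil entry on the same strand and was at 27.0 to 117.0 FPKM, with an r of -0.93 to Avil. Among the related genes, Vill rose from Ph1 to Ph2 by 1.32 (limma adjusted p = 0.0004199) and Vil1 (villin, of the intestinal brush border) by 1.55 (limma adjusted p = 0.0008443). Svil, made in muscle, fell from Ph1 to Ph3 by 1.86 (limma adjusted p = 2.665e-06).

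Dclk1, a microtubule-associated kinase used as a marker of tuft cells and made in neurons too, lies at chr3:55242369-55539068 on the plus strand. Its FPKM was 1.86 to 4.40 in Ph1 with a median of 3.09. In Ph2 it was 1.91 to 4.09 with a median of 2.78, and in Ph3 3.26, 1.80 and 1.20. The ranges overlapped. The log2 differences were -0.11 ± 0.19 from Ph1 to Ph2, -0.33 ± 0.23 from Ph2 to Ph3 and -0.44 ± 0.23 from Ph1 to Ph3 (SE, limma adjusted p = 0.6277, 0.2301 and 0.09746). Their signs turned after median-ratio scaling, to 0.10, 0.09 and 0.19.

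Dclk1 moved from one timepoint to the next more than its bounds allow at 12 of 14 steps, and in both directions. It was at 1.91 FPKM at W1 and 4.09 at W2. The neuronal gene Elavl4 went from 3.02 to 2.07 FPKM over this step and the enteric neuron list from 207.6 to 152.4. Dclk2, a related kinase of neurons, fell from Ph1 to Ph3 by 1.63 (limma adjusted p = 1.292e-06), and by 1.11 after median-ratio scaling. The gene closest to Dclk1 in course was Gm2382 (r = 0.908). The next were 2900008C10Rik (0.849) and Ttc33 (0.839).

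Il25, the interleukin by which intestinal tuft cells alert type 2 lymphoid cells, lies at chr14:54929394-54935841 on the plus strand. It was listed at 0 at 6 timepoints and at no more than 0.176 FPKM at 8 others. At W3 it was at 0.853 FPKM, with bounds of 0.347 to 1.36, which imply about 11.4 fragments. These bounds lay above those at W2, 0 to 0.265, and overlapped those at W1, 0 to 0.418. With no minimum on FPKM, the Ph3 to Ph1 difference was 0.37 ± 0.13 (SE, limma adjusted p = 0.02724).

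The partners of Il25 were measured with it. Of 20 genes of the type 2 circuit, 12 could be tested, and from Ph1 to Ph2 5 rose and 0 fell, with a median of 0.44, where 13.2% of all genes rose and 35.1% fell. The 5 were Il17rb, which encodes the receptor subunit that binds the product of Il25, Il17ra, its partner subunit, Il4ra, Rora and Areg. Of these, Il17rb and Rora reached 1 FPKM only after Ph1, so the FPKM minimum favours their rise. After Ph2 0 rose and 2 fell, Crlf2, a receptor subunit for thymic stromal lymphopoietin, and Gata3, a factor of type 2 lymphoid cells, beside 3.41% and 37.4% of all genes, and after median-ratio scaling 1 rose and 1 fell, beside 15.3% and 10.2%. Il17rb was at 0.0263 FPKM at E12.5 and 1.25 at D5. Areg, an epidermal growth factor ligand, was at 33.7 FPKM at W3 and 9.70 at W8. The interleukins that act back on the epithelium stayed low, with Il4 at no more than 0.427, Il13 at no more than 0.167 FPKM, Il5 below that and Il9 listed at 0 throughout. Il33, an alarm cytokine, ranged from 4.02 FPKM at W8 to 26.8 at W3.

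The steps between consecutive timepoints were compared by the deposited bounds, which cover counting error only, so that a step between single libraries has no replicate check. From W1 to W2, 6 of the 8 genes were higher with bounds apart, Dclk1, Pou2f3, Trpm5, Gnat3, Avil and Plcg2, and 0 were lower. These are the 6 that reached an FPKM of 1, and Gnat3 did so only at W2 and W3, which favours a rise at this step. Of all 16902 genes that reached 1, 19.3% were higher over this step. The scaling factors of both libraries were close, 0.938 and 0.965. From W3 to W6, 5 of the 8 were lower, Dclk1, Pou2f3, Gnat3, Avil and Plcg2, and 0 were higher, where 46.3% of the 16902 genes were lower. After median-ratio scaling Avil went from 94.6 at W3 to 105.9 at W6, so its direction over this step depends on the scaling, while Gnat3 went from 4.03 to 1.57 and Plcg2 from 6.47 to 4.62. An entry at 0 has bounds of 0, so a step to or from 0 counts as apart whenever the other bound is above 0.

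A list of 50 other tuft cell genes was set beside the 8, and 49 of the symbols were matched. The 40 of them that reached an FPKM of 1 are counted here. Some, such as Rgs13, Spib, Sh2d6 and Sh2d7, were below 1 at every timepoint up to W1, so this minimum favours a rise at W2. Without the minimum, 27 of the 49 were higher and 2 lower from W1 to W2, and 27 were lower and 0 higher from W3 to W6. From W1 to W2, 25 of the 40 were higher and 2 lower, and from W3 to W6, 26 were lower and 0 higher. These shares were 62.5% and 65.0%, beside 19.3% and 46.3% of all genes. They rest on FPKM as deposited, and the scaling factors of W3 and W6 were further apart, 0.760 and 0.570. At each of the other steps at most 11 of the 40 (27.5%) were higher. The 11 were reached from E12.5 to E13.5, E15.5 to E16.5 and D5 to W1, beside 11.3%, 13.1% and 8.74% of all genes. Among the genes that were higher at W2, the adaptor gene Sh2d6 went from 0.294 to 5.14 FPKM. Further examples, chosen after their values were seen, were Sh2d7 (0.287 to 2.71), the phosphoinositide 3-kinase subunit Pik3r5 (0.487 to 3.08), the G protein gamma subunit Gng13 (1.23 to 6.21), Lrmp (2.16 to 12.7) and Alox5ap (5.59 to 17.7), the partner of Alox5. Not all of these were low before W2. Lrmp was also at 14.4 FPKM at E17.5. Markers of other epithelial cells rose from W1 to W2 as well. The 10 endocrine markers summed to 1175 and 4127 FPKM at these timepoints, and the 13 glandular stomach markers to 40500 and 76410. The part of a common change of the epithelium in the step was not tested.

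**Figure D5:**
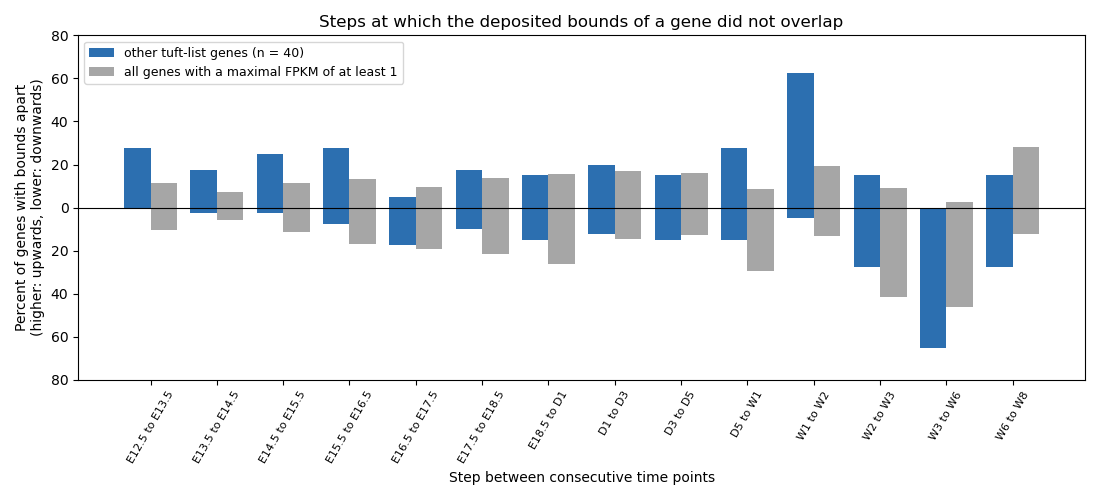
Percent of genes whose deposited bounds did not overlap between consecutive timepoints, higher at the later one (upwards) or lower (downwards), for 40 other tuft list genes and for all 16902 genes that reached an FPKM of 1. The step from W1 to W2 has 62.5% of the list genes upwards beside 19.3% of all genes. The step from W3 to W6 has 65.0% downwards beside 46.3%, in FPKM as deposited and without scaling. Some list genes reached 1 only from W2 on, which favours a rise there.

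Between the phases, the same 40 were tested. Some of them, such as Rgs13, Spib, Sh2d6 and Sh2d7, reached 1 FPKM only from W2 on, so the FPKM minimum favours a rise here too. From Ph1 to Ph2, 12 rose and 3 fell, with a median of 0.42 against -0.22 for all genes, of which 13.2% were called higher and 35.1% lower. Between Ph2 and Ph3, 3 rose and 2 fell, with a median of 0.16 against -0.43, beside 3.41% and 37.4% of all genes. These counts depend on the scaling and on single timepoints: 9 rose and 1 fell after median-ratio scaling (15.3% and 10.2% of all genes), and leaving out 1 timepoint gave 1 to 9 risers, with 9 without W2 and 1 without any one of W3, W6 and W8. Those that rose were Sh2d6, Atp2a3, a calcium pump, and Cd24a, a surface protein of many epithelial cells, and those that fell were Kctd12 and Hpgds, the prostaglandin D synthase. From Ph1 to Ph3, 15 rose and 4 fell (11.7% and 55.2% of all genes), and after median-ratio scaling 27 rose and 3 fell (29.3% and 27.3%). Several of the risers are made in many epithelial cells. Krt18, a keratin of simple epithelia, went from 119.0 FPKM at E12.5 to 518.8 at W8 and Cd24a from 197.2 to 652.9. The homeobox genes Hmx2 and Hmx3 fell from Ph1 to Ph2 by 0.83 each on the log2 scale (limma adjusted p = 0.0007155 and 0.003533).

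The signalling chain around Gnat3, Plcg2 and Trpm5 was uneven. Of 24 transduction genes 9 reached 1 FPKM and could be tested. From Ph1 to Ph2, 3 rose and 2 fell, against 13.2% and 35.1% of all genes. Itpr3, the calcium release channel of the chain, rose by 0.53 ± 0.15 (SE, limma adjusted p = 0.006698) and went on to 29.1 FPKM at W8. Ffar2, a receptor for short-chain fatty acids, rose by 0.66 (limma adjusted p = 0.000885), and Trpm4 was the other riser. Ffar2 reached 1 FPKM only after Ph1, so the FPKM minimum favours its rise. The G protein subunit genes Gnb1 and Gng7 fell. From Ph2 to Ph3, 0 rose and 2 fell, the abundant Gnai2 and the receptor gene Gpr35, against 3.41% and 37.4% of all genes. After median-ratio scaling the counts were 4 and 1 from Ph1 to Ph2 (20.0% and 18.7% of all genes) and 2 and 0 from Ph2 to Ph3 (15.3% and 10.2%), so both calls after Ph2 depend on the scaling.

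Several other genes of the taste chain stayed below 1 FPKM. Plcb2, the phospholipase of taste cells, lay between 0.300 and 0.987 FPKM, was highest at W2 and had about 25.5 or more fragments in every library. Gnb3 was at no more than 0.724, Tas1r1 at no more than 0.301 and Tas1r3 at no more than 0.372 FPKM. The bitter receptor genes Tas2r105, Tas2r131 and Tas2r138, and Rgs21 and Calhm3, were listed at 0 at all 15 timepoints. Sucnr1, the succinate receptor of intestinal tuft cells, was at no more than 0.195 FPKM.

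Genes for the output of the cells were also counted. Of 15 genes of lipid mediators and acetylcholine 14 were matched and 12 tested. From Ph1 to Ph2 2 rose, Ltc4s (leukotriene C4 synthase, by 1.74, limma adjusted p = 0.0003503) and Ache, and 0 fell, where 13.2% of all genes rose and 35.1% fell. From Ph2 to Ph3 0 rose and 5 fell, Hpgds, Ptges, Ache and the cholinergic transporter genes Slc5a7 and Slc18a3, a share near the 37.4% of all genes that fell. After median-ratio scaling 1 rose and 0 fell, so these 5 calls depend on the scaling. Chat, which encodes the enzyme that makes acetylcholine, was at no more than 0.561 FPKM. Its highest value was at E14.5, with bounds that overlapped those of the timepoints before and after. Enteric neurons, which are cholinergic too, had their highest marker sum at E14.5. The part of enteric neurons in the Chat values was not tested.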

How the data were processed

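RNA of whole mouse stomachs was sequenced at 15 timepoints. The tables that the authors deposited, 1 for each timepoint, give the FPKM of every gene entry and 2 confidence bounds around it. According to the methods of the study reads were mapped to GRCm38 with HISAT2 and quantified with StringTie, while the submitters' processing notes name Bowtie and the tables have the layout of Cufflinks. Entries of a symbol were summed (44788 symbols), and starts were counted from 1. The 16902 genes whose highest FPKM was 1 or more were compared on log2(FPKM + 1) with limma 3.58.1 in R 4.3.3, with the timepoints of a phase as its replicates, Benjamini-Hochberg adjustment over all of them and a threshold of 0.01. Other steps used Python 3.11.15, pandas 2.3.3, NumPy 2.4.6 and matplotlib 3.10.9. The test was tried on simulated data with known shifts. Depth is not given, and bounds cover counting error only.

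The genes and lists were chosen with earlier results of these data known. Named were the 8 genes, their paralogs, the 3 genes most similar in course to each, and from each list the 2 most abundant genes and the 2 with the largest called difference between Ph3 and Ph2. Other list genes were named after their values were seen. Alternatives were other pseudocounts, FPKM minimums, scalings, phase groupings, a mean-dependent prior variance, the first entry of a symbol, a threshold of 0.05, and leaving out each timepoint, and, added after seeing the data, D1 and W8 together.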

Additional observations from a re-analysis of the deposited data

Results flagged for a closer look

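In 3 groups of 6 timepoints 1 value stood far from the others by Dixon's ratio, the gap to the nearest value divided by the range of the group. All 3 were W2 within Ph2. Gnat3 was at 3.13 FPKM (ratio 0.935), Plcg2 at 4.87 FPKM (ratio 0.789) and Avil at 36.1 FPKM (ratio 0.626). Of the 16 groups, Gnat3 in Ph1 was at 0 throughout and had no ratio. Chance flags about 1 in 20 of the rest. W2 is the last timepoint of Ph2, so its distance from the rest includes change with age, and with 1 transcriptome per timepoint the part of the library was not tested.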

How the results depend on the processing

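The calls of Pou2f3 and Trpm5 from Ph1 to Ph2, of Trpm5 from Ph1 to Ph3 and of Avil in all 3 comparisons were kept under every alternative run. The direction of Dclk1 turned with median-ratio scaling (0.10, 0.09 and 0.19 for Ph2 to Ph1, Ph3 to Ph2 and Ph3 to Ph1) and with quantile normalization (0.28 and 0.23 for the last 2), and that of Trpm5 from Ph2 to Ph3 became 0 and 0.18. The call of Gnat3 from Ph1 to Ph3 was lost with no FPKM minimum (limma adjusted p = 0.01985), where more genes were tested, and with the protein phases (0.01112). Over all alternatives except leaving out timepoints its limma adjusted p ranged from 0.0003754 to 0.01985. For these changes the cause was not tested.

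Across the 3 phases 5 members passed with median-ratio scaling, quantile normalization and a threshold of 0.05. From Ph2 to Ph3, 2 members rose under both scalings. From Ph1 to Ph3, 1 rose with no minimum and with the protein phases. Of the other tuft genes, 1 fell from Ph1 to Ph2 with median-ratio scaling. From Ph2 to Ph3, 9 rose and 1 fell under both scalings, 1 rose with a pseudocount of 0.01, 0 rose without D1 and W8, where 2 of the 3 Ph3 timepoints remain, and 5 fell with the protein phases and at the 0.05 threshold.

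Leaving out each timepoint gave 3 to 5 members across the phases, 1 to 2 higher from Ph2 to Ph3 and 1 to 3 higher from Ph1 to Ph3. Of the other tuft genes, 1 to 9 rose and 1 to 4 fell from Ph2 to Ph3, with 9 risers without W2 and 1 without any one of W3, W6 and W8. Without W3, Gnat3 differed from Ph1 to Ph3 by 0.84 (limma adjusted p = 0.07575), and without W2, Plcg2 passed (0.58, limma adjusted p = 0.001542). No paired analysis was possible because the labels carry no replicate numbers. The depth limits Gfi1b, Il25 and the taste receptors.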
